A study of Mus musculus with 9 samples.

Results

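Immediate early genes are the first genes that a nerve cell transcribes after it has been active, without new protein being needed. The 10 described here are Arc, Fos, Fosb, Junb, Egr1, Egr2, Egr3, Nr4a1, Npas4 and Fosl2, taken as a named list. They come from the 34328 protein-coding and long noncoding RNA genes of the RefSeq annotation placed on the chromosomes used. CpG methylation around them was measured by whole-genome bisulfite sequencing of the nucleus accumbens, the ventral part of the striatum that belongs to the reward circuit, in 9 libraries. The labels put 5 libraries in the phenotype group Control (numbers 2, 3, 4, 5 and 8) and 4 in the group Susceptible (numbers 2, 3, 6 and 7). All are labelled as C57BL/6J, and 1 treatment text stands on every library, Control included: male mice aged 8 weeks met an unfamiliar CD1 retired breeder, screened for aggression, once a day for 10 days. The labels do not say whether Control mice were defeated, how Susceptible was defined, or how long after the last encounter the tissue was taken. They do not name the animal behind a library either, so p-values measure the spread between these libraries. RNA was not measured.

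Calcium entry and growth factor signals reach these genes mainly through CREB, which binds the cAMP response element, and through serum response factor, which binds the CArG box. The core of a cAMP response element holds a CpG, and methylation of that CpG is known to weaken CREB binding. Most of the products are transcription factors: Fos, Fosb, Junb and Fosl2 are AP-1 subunits, Egr1 to Egr3 are zinc finger proteins, Nr4a1 is an orphan nuclear receptor and Npas4 is a calcium-induced factor of neurons. Arc works instead at synapses, where it promotes the removal of AMPA receptors. A truncated Fosb product, ΔFosB, is known for its slow build-up in the nucleus accumbens under repeated stress or drug exposure.

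The methylation level is the percentage of calls at a CpG that stayed cytosine after bisulfite conversion, a reading that includes hydroxymethylation. Levels were summed over 1 kb on each side of the start (the start window), from the start to the gene end (the gene body), and in fixed tiles of 1 kb from 10 kb upstream to 5 kb downstream. The deposited files list cytosines with at least 10 calls, and 313475624 to 570984634 listed calls were available per library. Every Susceptible library held more listed calls than any Control library. Control 5 and Control 8 stood apart in the agreement of the 2 strands of a CpG: the scatter between strands was 18 and 19.2 times that of independent calls, against 2.32 to 5.95 times in the other 7 libraries. Differences of start windows, whole gene bodies and named tiles that move by more than 1.5 times without these 2 libraries are given both ways. Parts of bodies beyond 1 kb from the start are not covered by this rule. In tissue punches, a different mix of cells and a different level within cells cannot be told apart.

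Sequences of the 250 bases before the start were held for 7 of the 10 genes in RefSeq's promoter table of GRCm38.p6. All 396389 listed CpGs that fell in the promoter windows of that table lay on a CG of its sequence, so the files and the table share their coordinates. The promoters below are the 4 with at least 2 core sites of the inducible element that CREB binds, and that of Fosl2, the member without a match. Capitals mark TGACG or its reverse complement CGTCA, the core of the cAMP response element, and in Egr2 also a CArG box. Each sequence is written 5′ to 3′ on the gene's own strand and ends at the base before the start.
Fos, chr12:85473640-85473889, plus strand: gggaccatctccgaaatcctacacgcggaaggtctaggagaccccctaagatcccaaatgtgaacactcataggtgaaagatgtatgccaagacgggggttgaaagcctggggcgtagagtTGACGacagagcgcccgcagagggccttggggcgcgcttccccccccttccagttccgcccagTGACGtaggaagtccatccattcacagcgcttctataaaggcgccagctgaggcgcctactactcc
Egr2, chr10:67537680-67537929, plus strand: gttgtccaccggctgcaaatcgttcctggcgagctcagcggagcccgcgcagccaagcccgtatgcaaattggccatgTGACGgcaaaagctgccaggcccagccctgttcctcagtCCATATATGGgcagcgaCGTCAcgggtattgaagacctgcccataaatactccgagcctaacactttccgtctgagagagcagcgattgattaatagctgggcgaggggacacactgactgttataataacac
Nr4a1, chr15:101266596-101266845, plus strand: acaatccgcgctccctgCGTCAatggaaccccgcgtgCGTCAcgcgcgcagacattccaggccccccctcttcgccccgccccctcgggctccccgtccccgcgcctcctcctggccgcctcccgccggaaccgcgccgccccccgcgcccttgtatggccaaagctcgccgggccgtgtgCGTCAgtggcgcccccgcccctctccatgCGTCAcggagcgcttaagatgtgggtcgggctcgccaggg
Npas4, chr19:4989972-4990221, minus strand: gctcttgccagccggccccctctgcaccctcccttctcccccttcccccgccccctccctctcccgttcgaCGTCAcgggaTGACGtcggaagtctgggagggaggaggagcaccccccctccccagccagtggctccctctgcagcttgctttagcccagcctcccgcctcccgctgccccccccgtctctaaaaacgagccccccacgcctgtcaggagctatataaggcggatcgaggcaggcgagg
Fosl2, chr5:32136222-32136471, plus strand: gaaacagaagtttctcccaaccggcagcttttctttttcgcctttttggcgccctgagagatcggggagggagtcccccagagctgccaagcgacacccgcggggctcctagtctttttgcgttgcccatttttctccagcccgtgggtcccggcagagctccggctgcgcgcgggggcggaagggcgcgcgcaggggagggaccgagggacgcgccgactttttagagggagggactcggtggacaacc

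Core sites were found in 6 of the 7 sequences: 4 in Nr4a1, 2 each in Fos, Egr2 and Npas4, and 1 each in Fosb and Junb. Among 32851 promoters of the table, 17.8% held a core site in the same 250 bases. The full palindrome TGACGTCA, whose letters contain both core sites, was in none of the 7 and in 1.55% of all promoters, and a CArG box was in 1.47%. A match describes letters in this window and does not show that a factor binds.

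CpGs inside the core sites were read as almost free of methylation. Of their 12 CpGs, 11 were listed in at least 1 library, and these gave 77 values per CpG and library, of which 70 were 0. In all, 15 of 2183 calls were methylated, or 0.687%. The Fos core site CpG at -126 had 0 methylated calls of 232 over 8 libraries, which allows a level of up to 1.29%, and the CpG at -63 had 3 of 236. In Egr2, the CpG at -116 had 0 of 263 calls and that at -169 had 2 of 432. Nr4a1 carried the most methylated calls at a CpG, 5 of 276 at -40 (1.81%, 95% Wilson interval 0.776 to 4.17%), and all 5 came from Control 3, which read 17.2% there. The highest level was at the Junb CpG at -103, with 4 of 197 calls in 7 libraries (2.03%, 95% Wilson interval 0.792 to 5.10%). There Susceptible 3 read 4.76% and Susceptible 7 read 12.5%, and the other 5 libraries read 0%. The Fosb CpG at -57 was listed in 1 library, with 0 of 16 calls, which allows up to 18.8%. For Npas4 1 core site CpG was listed in no library, and the other had 0 of 34 calls in 3 libraries, which allows up to 8.82%. These intervals and limits cover counting error only.

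Promoter CpGs away from the core sites were mostly low too, and single ones were methylated in some libraries. Core sites included, means over 10% were found at 1 of 20 CpGs in Fos, 2 of 25 in Fosb and 0 of 21 in Junb. For Egr2 it was 1 of 16, for Nr4a1 3 of 35, for Npas4 1 of 18 listed and for Fosl2 0 of 32. These counts reach 50 bases past the start. At -137 in the Fos promoter, Control 4 read 91.7% and Control 3 read 33.3%. Susceptible 2 read 18.5% there, and the other 6 libraries read 0 to 3.13%, on 12 to 59 calls per library. At this CpG the Control mean was 25.6% ± 39.5 (SD, n = 5) and the Susceptible mean 5.34% ± 8.89 (n = 4), with wide overlap. At -102 in the Fosb promoter, listed in 6 libraries, the 4 Susceptible libraries read 26.3, 29.4, 33.3 and 35.7%, Control 3 read 0% and Control 8 read 20%. At -31 in Egr2, Susceptible 3 read 42.9% and Control 8 read 34.5%, and the other 6 libraries that listed it 0 to 5.88%. The Nr4a1 CpG at -134 was listed in 2 libraries, at 100% in Control 5 and 7.14% in Susceptible 2. These 4 CpGs were chosen after their values were seen.

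**Figure D1:**
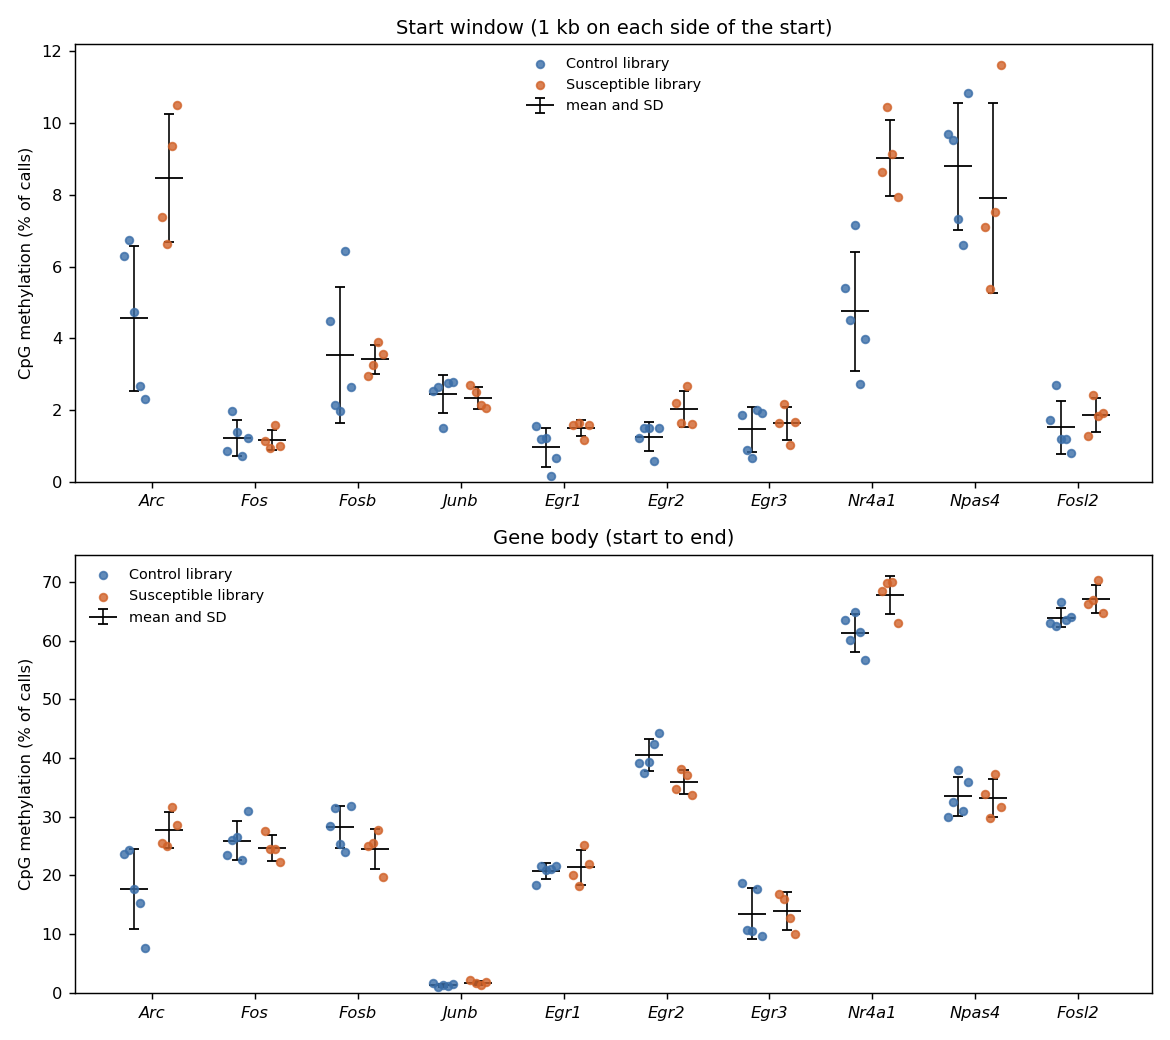
CpG methylation (percent of calls) of the 10 genes in each library, in the start window (top) and the gene body (bottom). Points are libraries, bars are the group mean with SD (5 Control, 4 Susceptible). All start windows lie at or under 11.6%, and mean bodies spread from 1.50% in Junb to 65.3% in Fosl2.

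The starts of all 10 genes were low in methylation, and all 10 passed the minimum of 3 CpGs and 20 calls in every library. Mean levels over the 9 libraries ran from 1.20% in Egr1 to 8.40% in Npas4. The median start window of the 31006 genes tested read 33.0%, and 38.4% of them were under 10%. The genes tested include long noncoding RNA genes and genes without a listed start, for which the CpG-richer gene end was used. No share over protein-coding genes alone was computed. In ascending order the means were 1.20% in Egr1, 1.20% in Fos, 1.53% in Egr3, 1.60% in Egr2, 1.67% in Fosl2, 2.40% in Junb, 3.48% in Fosb, 6.30% in Arc, 6.65% in Nr4a1 and 8.40% in Npas4. Each gene's range over libraries overlapped that of its neighbour in this order.

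Between the groups, no start window of any gene passed an adjusted p of 0.05 in the quasi-binomial model over all genes (0.00% of 31006), and the smallest adjusted p of a member was 0.973. At an unadjusted p under 0.05 stood 2 of the 10 members, Arc and Nr4a1, against 4.82% of all windows. Both had the higher mean in Susceptible, a direction with such a p in 2.32% of windows. The groups did not overlap in 2 of the 10, Nr4a1 and Egr2, against 1.86% of all windows, and again both were higher in Susceptible (0.997% of windows).

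Among the AP-1 subunits the start levels of the groups lay close together. Fos (Gene ID 14281, chromosome 12, start at 85473890, plus strand) read 0.704 to 1.97% in Control and 0.936 to 1.57% in Susceptible. Fosb (Gene ID 14282, chromosome 7, start at 19310045, minus strand) read 1.99 to 6.43% and 2.95 to 3.89%. For Junb (Gene ID 16477, chromosome 8, start at 84978748, minus strand) the ranges were 1.50 to 2.79% and 2.05 to 2.69%. Fosl2, which encodes Fra-2 (Gene ID 14284, chromosome 5, start at 32136472, plus strand), read 0.796 to 2.70% and 1.26 to 2.43%. The 4 differences of means, Susceptible minus Control, lay between -0.115 and 0.339 percentage points, with exact two-sided permutation p-values of 0.444 to 0.929, and in each gene the ranges overlapped. With Control 5 and Control 8 left out they were -0.248 points in Fos, 0.555 in Fosb, 0.119 in Junb and -0.0121 in Fosl2, so that only Fos kept its direction. With 1 library left out at a time, the signs changed in Fos and Fosb, and the Fosl2 difference was 0.148 to 0.635 points. The Junb difference also depended on single libraries: Control 4 read 1.50% there, against 2.52 to 2.79% in the other Control libraries.

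The Egr starts had means of 1.20 to 1.60% over the 9 libraries, a span that also holds Fos. Egr1 (Gene ID 13653, chromosome 18, start at 34861207, plus strand) read 1.56, 1.20, 1.21, 0.152 and 0.669% in Control 2, 3, 4, 5 and 8. Its Susceptible values were 1.58, 1.63, 1.17 and 1.59% in libraries 2, 3, 6 and 7. The 2 lowest values were those of Control 5 and Control 8, and the difference of 0.536 points had an exact permutation p of 0.127. Without these 2 libraries it was 0.171 points, and without Control 5 alone it was 0.334 points. Egr3 (Gene ID 13655, chromosome 14, start at 70077317, plus strand) read 1.46% ± 0.63 in Control (SD, n = 5) and 1.63% ± 0.47 in Susceptible (n = 4), with overlapping ranges, a difference of 0.164 points that was 0.487 points without Control 5 and Control 8 and -0.0333 points without Control 4.

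Egr2 (Gene ID 13654, chromosome 10, start at 67537930, plus strand) read 1.22, 1.49, 1.49, 0.585 and 1.50% in Control 2, 3, 4, 5 and 8. The Susceptible values were 2.19, 1.64, 2.67 and 1.60% in libraries 2, 3, 6 and 7. Every Susceptible library was above every Control library, the nearest pair being Control 8 and Susceptible 7. The difference of means was 0.768 points, with an exact two-sided permutation p of 0.00794, not adjusted over the 10 genes. That is the smallest p that the splits of 9 libraries can give. The model p was 0.0645, and the adjusted p over all genes was 0.973. Over the 68 CpGs listed in all 9 libraries, summed calls gave 0.829 points (exact permutation p = 0.0238). Equal weight per CpG gave 0.933 points (exact permutation p = 0.0397). RefSeq lists 5 starts of Egr2. Around the 2 next to the one used, at 67537869 and 67537870, the difference was 0.781 points, but the groups overlapped (exact permutation p = 0.0635). Around the other 2 it was 0.318 and 0.501 points (exact permutation p = 0.619 and 0.127), again with overlap. Within 500 bp of the start used it was 0.507 points, and within 2 kb it was -0.00492 points, so the direction was not kept.

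Npas4 (Gene ID 225872, chromosome 19, start at 4989971, minus strand) had the highest start level of the 10. It read 9.70, 9.53, 7.33, 6.59 and 10.8% in Control against 7.10, 5.38, 7.53 and 11.6% in Susceptible, in the library order above. The groups overlapped throughout, and the difference was -0.889 points (exact permutation p = 0.532). Single libraries moved it: it was -2.13 points without Susceptible 7, -1.44 without Control 5, -0.378 without Control 8 and -0.0445 without Susceptible 3.

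Arc (Gene ID 11838, chromosome 15, start at 74672570, minus strand) read 6.28, 6.75, 4.74, 2.68 and 2.31% in Control 2, 3, 4, 5 and 8. Its Susceptible values were 7.39, 6.63, 9.37 and 10.5% in libraries 2, 3, 6 and 7, on 2763 to 5584 calls per library. Only Susceptible 3 lay below a Control library, Control 3, and Control 5 and Control 8 were the lowest. The means were 4.55% ± 2.03 and 8.47% ± 1.78, a difference of 3.92 points (exact permutation p = 0.0317, model p = 0.00318, adjusted p = 0.973). Without Control 5 and Control 8 the difference was 2.55 points. Within 500 bp of the start the difference was 0.939 points, and within 2 kb it was 7.05 points.

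In bins of 250 bp, the Arc start was low in both groups from 250 bp upstream to 500 bp downstream. In the last 250 bp before the start, Control read 1.53% ± 0.24 and Susceptible 1.04% ± 0.18. In the first 250 bp after it, Control read 0.515% ± 0.518 (SD, n = 5) and Susceptible 1.05% ± 0.33 (n = 4). From 250 to 499 bp the levels were 1.73% ± 1.23 and 3.77% ± 1.51, with overlap. From 500 to 749 bp, Control read 8.65% ± 4.02 and Susceptible 18.9% ± 5.2, and from 750 to 999 bp the levels were 23.9% ± 12.8 and 46.5% ± 11.3. Between 500 and 749 bp the 5 Control values were 11.5, 8.15, 13.3, 2.87 and 7.45% and the 4 Susceptible values 15.1, 14.0, 22.3 and 24.4%. No Susceptible library reached down to the Control range in that bin. In the next bin the groups overlapped, with Control 3 at 39.2% and Susceptible 3 at 34.6%. Upstream, the bin from -500 to -251 bp read 7.75% ± 4.67 in Control and 15.96% ± 7.92 in Susceptible, again with overlap. In the 2 bins beyond it the group differences were 4.13 points (-750 to -501 bp) and -0.481 points (-1000 to -751 bp), and from -2000 to -1751 bp the difference was 14.1 points.

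**Figure D2:**
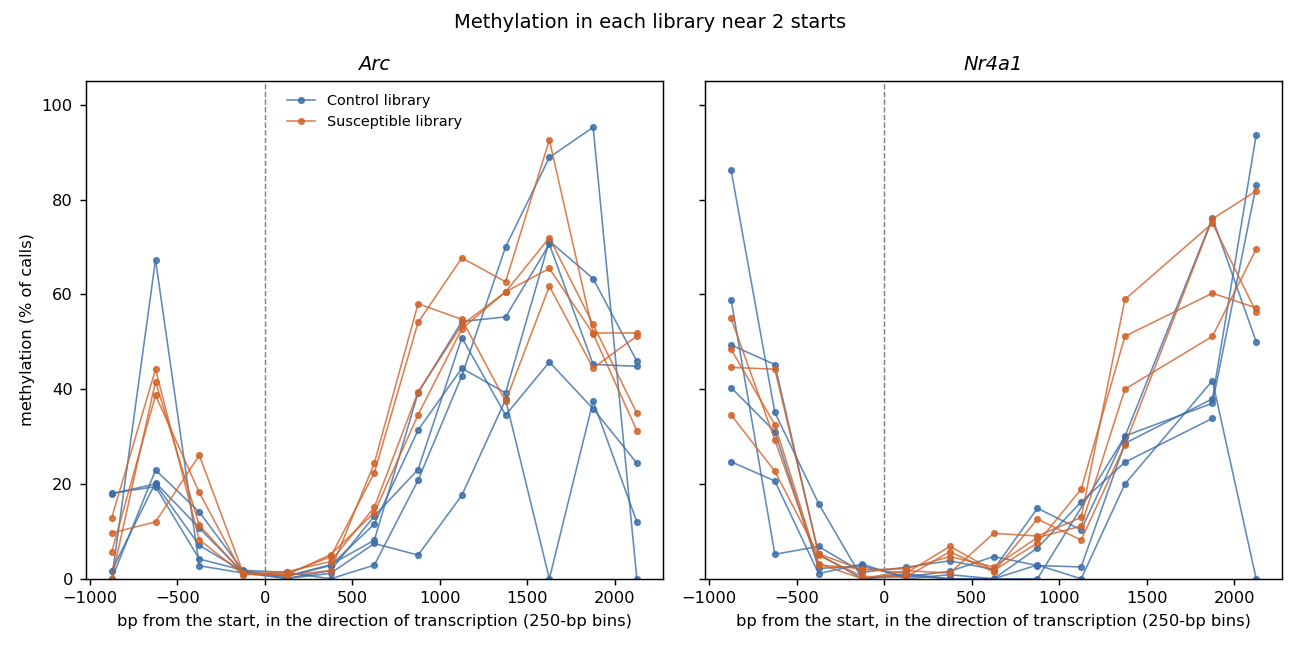
CpG methylation (percent of calls) in bins of 250 bp around the starts of Arc and Nr4a1, against distance from the start in bp. Each line is 1 library, and bins with no listed CpG in a library are skipped. Both starts are near 0% in the middle, and the 4 Susceptible lines of Arc lie above the 5 Control lines from 500 to 749 bp, while from 750 to 999 bp Control 3 is above Susceptible 3.

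Nr4a1 (Gene ID 15370, chromosome 15, start at 101266846, plus strand) read 5.39, 4.51, 7.16, 2.72 and 3.97% in Control 2, 3, 4, 5 and 8. In Susceptible 2, 3, 6 and 7 it read 8.63, 10.4, 9.13 and 7.93%, on 2039 to 3044 calls per library. The groups did not overlap, and the means were 4.75% ± 1.66 and 9.03% ± 1.06. The difference was 4.28 points (exact permutation p = 0.0159, model p = 0.000840, adjusted p = 0.973).

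This difference at Nr4a1 moved with which CpGs were listed and how deeply they were read. Restricted to the 38 CpGs of the window that every library listed, it was 1.90 points (exact permutation p = 0.0952), and with equal weight for each of them it was 0.0705 points (exact permutation p = 0.944). At CpGs missing from at least 1 library, 25 to 52 per library, Control read 8.47% ± 2.30 and Susceptible 15% ± 0.85. CpGs more than 500 bp upstream of the start had high levels in both groups: from -1000 to -751 bp Control read 51.9% ± 22.9 and Susceptible 45.6% ± 8.5, and from -750 to -501 bp they read 27.4% ± 15.2 and 32.2% ± 9.0. The groups overlapped in both bins and differed in opposite directions. Those upstream of -500 bp supplied 4.71 to 12.4% of the window's calls in Control and 15.1 to 18.4% in Susceptible, which did not overlap. At Arc the same share was 1.92 to 3.51% in Control and 2.49 to 3.47% in Susceptible. Within 500 bp of the Nr4a1 start the difference was 0.575 points.

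Bodies of immediate early genes were less methylated than most gene bodies. Their means ran from 1.50% in Junb to 65.3% in Fosl2 with a median of 26.0%, while the median over 32344 bodies was 78.4%. These genes are short, and part of each body is the start region itself: the bodies were 1840 bp (Junb) to 21369 bp (Fosl2) long. Of the 21860 bodies of at most 25000 bp, 11.3% read under 30%, against 6 of the 10 members. Apart from Fosl2 no member body was longer than 7950 bp (Nr4a1), so these bodies are not matched to the members in length. In ascending order they were Junb, Egr3 (13.7%), Egr1 (21.0%), Arc (22.1%), Fos (25.4%), Fosb (26.6%), Npas4 (33.3%), Egr2 (38.5%), Nr4a1 (64.2%) and Fosl2. Between Junb and Egr3, and between Egr2 and Nr4a1, the libraries' ranges did not overlap, and all other neighbours overlapped.

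No gene body passed an adjusted p of 0.05 either (0.00% of 32344), and the smallest adjusted p of a member was 0.998. At an unadjusted p under 0.05 stood 4 of the 10, against 4.55% of bodies: Arc, Nr4a1 and Fosl2 with the higher mean in Susceptible (1.49% of bodies) and Egr2 with the lower (3.06% of bodies). Without Control 5 and Control 8, 2 of the 10 stood there, against 4.39% of bodies. In 1 member, Arc, the groups did not overlap, against 1.62% of bodies, or 0.485% of bodies in the direction of Arc, higher in Susceptible.

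The Arc body, 3490 bp long and ending at 74669081, read 23.7, 24.3, 17.7, 15.3 and 7.61% in Control 2, 3, 4, 5 and 8, against 25.4, 25.01, 31.6 and 28.6% in Susceptible 2, 3, 6 and 7. The lowest 2 values were those of Control 8 and Control 5, and Control 2 and Control 3 lay just under the Susceptible range. The difference was 9.93 points (exact permutation p = 0.0397, model p = 0.0114, adjusted p = 0.998). Without Control 5 and Control 8 it was 5.77 points. Taking only the 78 body CpGs that no library lacked, summed calls gave 8.65 points and equal weight per CpG gave 5.80 points. More than 1 kb from the start, the Arc body read 45.9% ± 8.5 in Control and 56.2% ± 5.7 in Susceptible. That difference of 10.2 points (exact permutation p = 0.0317) was 6.57 points without Control 8 (exact permutation p = 0.0571).

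The Nr4a1 body read 63.5, 60.2, 64.9, 61.5 and 56.6% in Control against 68.5, 69.7, 69.9 and 63.1% in Susceptible, in the same library order. Susceptible 7 lay inside the Control range and the other 3 lay above it. The difference was 6.47 points (exact permutation p = 0.0397, model p = 0.00519). Its 101 CpGs found in every library gave 7.75 points with calls summed, and 3.31 points when each CpG counted equally. Beyond 1 kb from the start the difference was 3.18 points (exact permutation p = 0.111), and 5.04 points without Susceptible 7, the lowest library there (exact permutation p = 0.0179).

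For Egr2 the body read 39.1, 37.4, 39.4, 42.4 and 44.3% in Control against 34.8, 38.1, 37.1 and 33.6% in Susceptible. Control 3 and Susceptible 3 crossed, and the 2 highest values were those of Control 5 and Control 8. The difference was -4.63 points (exact permutation p = 0.0317, model p = 0.0194), and -2.73 points without Control 5 and Control 8. The 102 body CpGs shared by every library gave -3.95 points with calls summed. Weighting each of these CpGs equally gave 0.418 points, the other direction. Beyond 1 kb from the start, Egr2 read 56.6% ± 2.6 in Control and 49.7% ± 2.9 in Susceptible, a difference of -6.90 points (exact permutation p = 0.0238), with Control 3 and Susceptible 3 again crossing.

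The Fosl2 body read 63.0, 62.4, 66.6, 63.5 and 64.0% in Control against 66.1, 66.9, 70.3 and 64.7% in Susceptible. Control 4 lay among the Susceptible values, and the difference was 3.10 points (exact permutation p = 0.0476, model p = 0.0355). Without Susceptible 6 it was 2.0 points.

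The other 6 bodies had differences between -3.71 points in Fosb and 0.637 points in Egr1, with exact permutation p-values of 0.0873 to 0.897. The Fos body difference of -1.24 points was -0.647 without Control 5 and Control 8, and that of Egr1 was then 1.102 points. The Fosb body difference was -2.10 points without Susceptible 7, and that of Junb 0.251 points without Susceptible 2 (0.393 with it). Leaving out 1 library changed the sign in Fos, Egr1, Egr3 and Npas4. Junb, the least methylated body of the 10 and lower than all but 0.489% of gene bodies, read 1.33% ± 0.26 in Control and 1.72% ± 0.34 in Susceptible. In its last 839 bp, more than 1 kb from the start, Junb read 1.04, 0.85, 1.28, 0.613 and 0.743% in Control against 2.34, 1.60, 1.97 and 2.29% in Susceptible. The groups did not overlap there, and the difference was 1.14 points (exact permutation p = 0.00794, not adjusted over the 10 genes). Junb was the only one of the 10 without overlap beyond 1 kb, and no share over all genes was computed for such windows. Over the 10 genes, the differences beyond 1 kb ran from -6.90 points in Egr2 to 10.2 points in Arc.

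Levels of cell type markers are given beside these body differences, and none of the marker genes passed an adjusted p of 0.05. Over all bodies tested, 41.1% had the higher mean in Susceptible, and 52.4% did without Susceptible 7. Over 12 genes of striatal projection neurons (among them Drd1, Drd2, Ppp1r1b and Foxp1), the median body level per library was 53.1 to 60.8% in Control and 55.9 to 71.7% in Susceptible, and 9 of the 12 had the higher mean in Susceptible. Bodies of 6 astrocyte genes, such as Gfap and Aqp4, and of 6 microglia genes, such as Cx3cr1, had the lower mean in Susceptible in 6 of 6 and 6 of 6. The per-library medians overlapped: 79.1 to 81.1% in Control and 73.5 to 80.3% in Susceptible for astrocytes, and 80.7 to 84.6% and 78.2 to 82.2% for microglia. Bodies of 6 genes of cortical projection neurons read 42.6 to 49.0% and 38.7 to 45.0% (4 lower in Susceptible), and those of 9 oligodendrocyte genes 64.3 to 71.3% and 64.1 to 70.5% (5 lower). At marker starts, the mean was lower in Susceptible in 5 of 6 astrocyte, 5 of 6 microglia and 5 of 9 oligodendrocyte genes. It was higher in 9 of 12 striatal and 4 of 6 cortical genes, and in 47.6% of all start windows. The part of cell mix in the results at Arc, Nr4a1 and Egr2 was not tested. Median body levels over the 9 libraries were 45.1% in the cortical list, 58.8% in the striatal, 69.0% in the oligodendrocyte, 79.1% in the astrocyte and 81.4% in the microglia list.

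**Figure D3:**
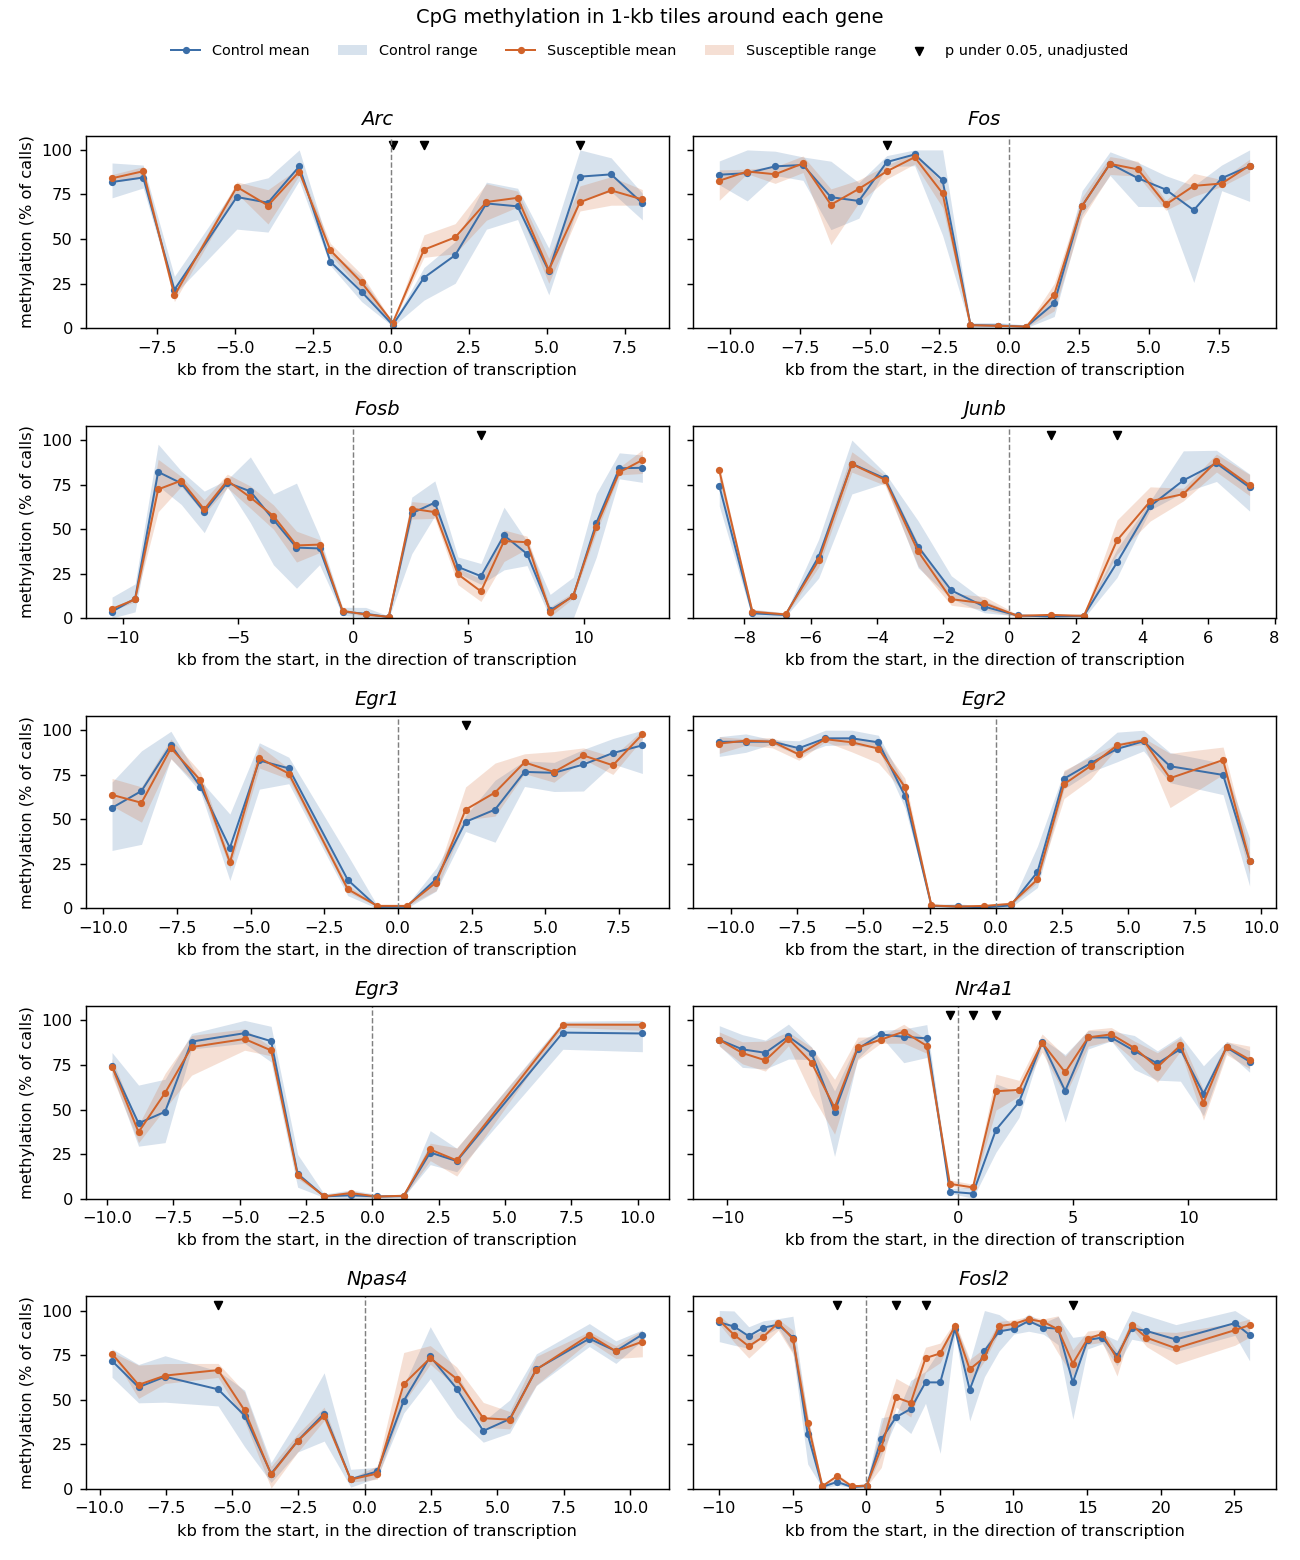
CpG methylation (percent of calls) in fixed 1-kb tiles around each gene, against distance of the tile centre from the start in kb. Lines are group means, bands the range over libraries, triangles tiles at an unadjusted p under 0.05, and lines run straight across tiles without enough calls. The start of every gene lies in a low valley, and several genes have a further valley upstream.

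Tiles extend the view to the flanks. The 10 loci held 224 tiles, of which 207 passed the minimum of 3 CpGs and 20 calls in every library. Levels under 20% were found in 43 of the 207 and levels over 80% in 72, while over all 1041809 tiles tested 2.96% were under 20% and 75.9% over 80%. The median level was 2.36% in the 30 tiles that touch a start window, 65.8% in 51 body tiles, 76.5% in 84 upstream tiles and 78.6% in 42 downstream tiles.

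Low tiles upstream, outside the start window, differed among the genes. Arc is known to have a distal activity-responsive element several kb upstream of its start. The lowest upstream tile of Arc, centred 6.93 kb from the start, read 20.1% over the 9 libraries, 21.6% ± 4.2 in Control and 18.3% ± 2.5 in Susceptible. Control 5 read 29.1% there and the other 4 Control libraries 19.0 to 20.3%, and the difference of -3.24 points was -1.17 without Control 5 and Control 8. It lay inside the noncoding gene Gm32994. In Npas4 the tile at -3.53 kb (chr19:4993001-4994000), upstream of the start used but inside the annotated gene, which reaches to 5003439, read 8.30%, with 3.55 to 14.8% in Control and 0.395 to 12.6% in Susceptible. The lowest of Fosb, at -10.5 kb, read 4.44%, and that of Junb, at -6.75 kb, read 2.0%. No start of another gene lay within 500 bp of these 4 tiles.

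Egr1 had 13.7% at -1.71 kb, next to the start, and Nr4a1 had 49.8% at -5.35 kb, its lowest upstream tile. This Nr4a1 tile also lies inside the annotated gene, which begins at 101253902, before the start used. The lowest upstream tiles of Egr3 (1.27% at -1.82 kb), Fosl2 (1.27% at -2.97 kb) and Egr2 (1.58% at -2.43 kb) continued the low region of the start, and that of Egr2 holds the first listed start of Egr2 itself, at 67535499, and the start of the noncoding gene Gm32255. The lowest upstream tile of Fos read 71.6%, the highest of the 10. In each of these 10 tiles the ranges of Control and Susceptible overlapped, with exact permutation p-values of 0.246 to 1. Their differences, -5.23 to 2.46 points, were -2.80 to 4.06 points without Control 5 and Control 8. They then changed sign in Fos (-4.23 to 4.06), Egr2 (0.174 to -0.0512) and Nr4a1 (2.46 to -2.80). By more than 1.5 times they moved in Egr1 (-5.23 to -2.33), Fosb (1.52 to 3.02), Junb (0.290 to 0.0891), Egr3 (0.00221 to 0.222) and Npas4 (-0.396 to -1.05).

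No tile of the genome passed an adjusted p of 0.05 (0.00% of 1041809), and the smallest adjusted p in the loci was 0.997. In the loci, 16 tiles stood at an unadjusted p under 0.05, or 7.73% against 4.38% of all tiles. Of these, 13 had the higher mean in Susceptible (2.18% of all tiles) and 3 the lower (2.19% of all tiles). Fosl2 held 4, Arc and Nr4a1 3 each, Junb 2, Fos, Fosb, Egr1 and Npas4 1 each, and Egr2 and Egr3 none. Without Susceptible 6 the count fell to 7, or 3.38% against 2.84% of all tiles. With limma on logit levels it was also 7, or 3.38% against 3.25%, so that in both the share in the loci was near that of the genome. With any other library left out, 16 to 21 tiles stood there, or 7.58 to 10.1%, against 3.83 to 5.37% of all tiles. The groups did not overlap in 6 tiles, 2.90% against 1.56%, with 5 higher in Susceptible (0.598% of all tiles) and 1 lower (0.960%).

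**Figure D4:**
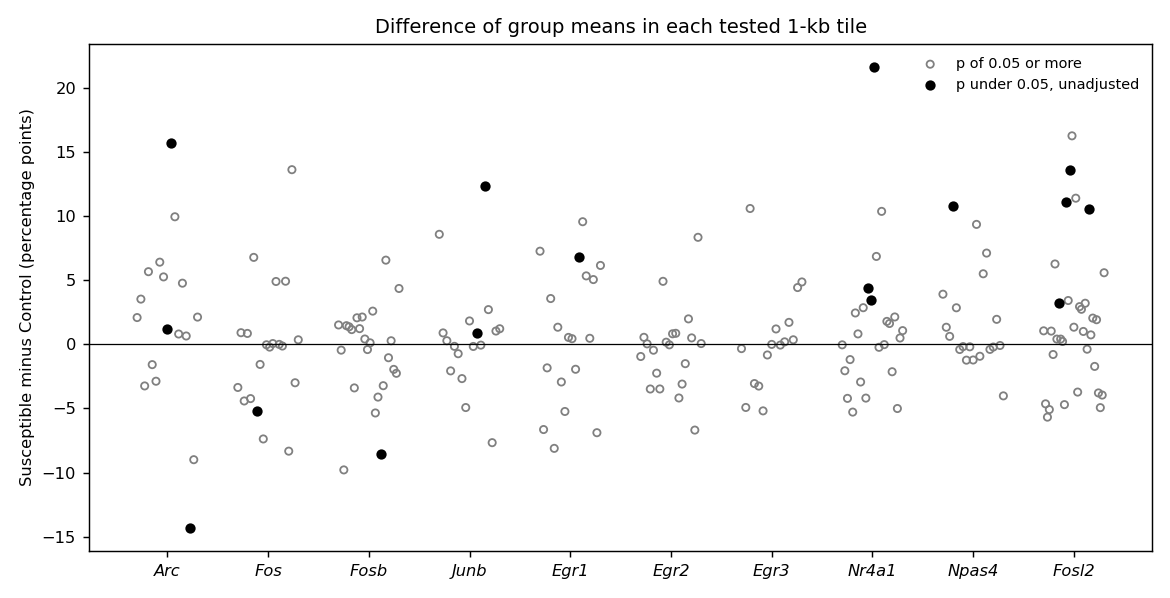
Difference of group means, Susceptible minus Control, in percentage points for each of the 207 tested 1-kb tiles, ordered within each gene along transcription. Filled points are the 16 tiles at an unadjusted p under 0.05, of which 13 lie above 0.

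The 5 tiles of smallest p were all at Arc or Nr4a1. The tile centred 1.07 kb downstream of the Arc start (chr15:74671001-74672000) read 30.6, 34.0, 29.2, 32.1 and 15.7% in Control 2, 3, 4, 5 and 8. In Susceptible 2, 3, 6 and 7 it read 42.0, 39.7, 52.4 and 42.1%. The 4 Susceptible values were all above the highest Control value, and the means differed by 15.7 points (exact permutation p = 0.00794, adjusted p over all tiles 0.997). Without Control 5 and Control 8 the difference was 12.8 points. This tile overlaps the Arc start window, the Arc body and its part beyond 1 kb. It also holds the 4 higher single CpGs of Arc given below, so these values are not independent.

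The next tile towards the start (chr15:74672001-74673000), which covers the Arc start itself, read 2.94, 2.39, 1.33, 0.937 and 1.39% in Control against 3.07, 2.46, 3.29 and 3.31% in Susceptible. Control 2 lay inside the Susceptible range, and the difference of 1.24 points (exact permutation p = 0.0397) was 0.814 points without Control 5 and Control 8. Downstream of the gene, at 6.07 kb from the start (chr15:74666001-74667000), Arc differed the other way. Control read 71.8, 77.9, 92.8, 100 and 82.4% and Susceptible 66.5, 79.8, 70.6 and 65.7%, a difference of -14.3 points (exact permutation p = 0.0635) with overlapping groups.

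At Nr4a1, the tile over the start and most of the upstream side of its window (chr15:101266001-101267000) read 3.91, 2.96, 5.76, 3.15 and 3.67% in Control against 8.85, 10.5, 6.94 and 6.85% in Susceptible. The groups did not overlap, and the difference was 4.395 points (exact permutation p = 0.00794), but 2.06 points over CpGs listed in all 9 libraries. The tile at 1.65 kb inside the gene (chr15:101268001-101269000) read 39.3, 33.9, 29.4, 64.5 and 26.0% in Control against 56.6, 49.7, 69.8 and 64.9% in Susceptible. Control 5 lay within the Susceptible range and the other Control libraries below it. The difference was 21.7 points (exact permutation p = 0.0476), on 5 CpGs in the library that listed fewest. Both tiles share CpGs with the Nr4a1 body given above.

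Among the remaining tiles without overlap, the tile of Junb centred at 1.25 kb, in its unmethylated body, read 0.777 to 1.30% in Control and 1.62 to 2.08% in Susceptible. This tile overlaps the part of Junb beyond 1 kb given above. In Fosl2 a tile at 2.03 kb read 37.9 to 41.4% and 45.8 to 62.0%, and a tile at -1.97 kb read 1.97 to 5.758% and 5.759 to 8.40%, so that its groups all but touched. The difference in the latter was 3.24 points, and 2.10 without Control 5 and Control 8. The tile at -3.35 kb from the Nr4a1 start, inside the annotated gene, was the lower one, with 91.0 to 94.4% in Control and 87.2 to 90.9% in Susceptible. Over all 207 tiles the median difference was 0.362 points, against -0.181 points over all tiles tested.

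Single CpGs listed in all 9 libraries numbered 2089 in the loci. In 30 of them the groups did not overlap, 1.44% against 1.72% of the 5818940 such CpGs of the genome. Of the 30, 17 were higher in Susceptible, 0.814% against 0.314%, and 13 were lower, 0.622% against 1.41%. The loci are richer in low methylation than the genome (43 of 207 tiles under 20%, against 2.96% of all tiles). A CpG at 0% in Control can separate only upward, and no shares at matched levels were computed. Arc had 4 of the higher ones close together, at 620, 724, 734 and 1142 bp from its start. The CpG at 620 bp read 0, 0, 3.33, 0 and 0% in Control against 16.9, 21.7, 14.5 and 16.9% in Susceptible. At 734 bp the Control values were 2.70, 12.8, 15.4, 0 and 0% and the Susceptible values 36.5, 22.8, 32.5 and 35.8%. Control 5 and Control 8 were at 0% in both. The CpG at 724 bp read 38.6, 26.5, 38.8, 0 and 0% in Control against 46.4, 40.7, 63.3 and 63.8% in Susceptible, and that at 1142 bp read 51.1, 51.0, 29.2, 6.35 and 0% against 60.2, 62.1, 54.4 and 63.8%. Without Control 5 and Control 8 the differences at 620 and 734 bp were 16.4 and 21.6 points (16.9 and 25.7 with them). Those at 724 and 1142 bp were then 18.9 and 16.4 points (32.7 and 32.6 with them). Arc also had 2 lower ones, at -3037 bp (98.8% ± 2.8 in Control and 80.8% ± 6.7 in Susceptible) and at -3226 bp (96.2% ± 3.5 and 84.3% ± 5.8). The 13 lower CpGs had Control means of 64.0 to 100%, and none lay within 1 kb of a start. In Egr1 and Nr4a1 no listed CpG separated the groups.

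Within 1 kb of the other starts, 4 separated CpGs were found, all low and higher in Susceptible. Those start windows held from 30 (Fosb, Npas4) to 100 (Fosl2) CpGs listed in all 9 libraries each. Over the genome 1.72% of such CpGs separated the groups, 0.314% upward. The Control means of the 4 were 0 to 0.932%, levels from which a CpG can hardly separate downward. No share over start windows was computed. The Egr2 CpG at -287 bp read 0% in all 5 Control libraries and 3.85, 8.33, 8 and 13.9% in Susceptible. In Fosl2 the CpGs at 48 and 106 bp read 0% in every Control library, with Susceptible means of 4.55% ± 1.62 and 1.84% ± 0.40. Levels this low rest on few methylated calls per library: at 48 bp the libraries held 23 to 48 calls. The SDs do not measure that counting error. The Junb CpG at 206 bp read 2.44, 2.22, 0, 0 and 0% in Control against 5.77, 8.82, 2.94 and 8% in Susceptible. Outside the start window, at 1603 bp in the Fos gene, a CpG read 8.33, 0, 0, 0 and 0% in Control against 19.2, 50, 55 and 18.8% in Susceptible.

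**Figure D5:**
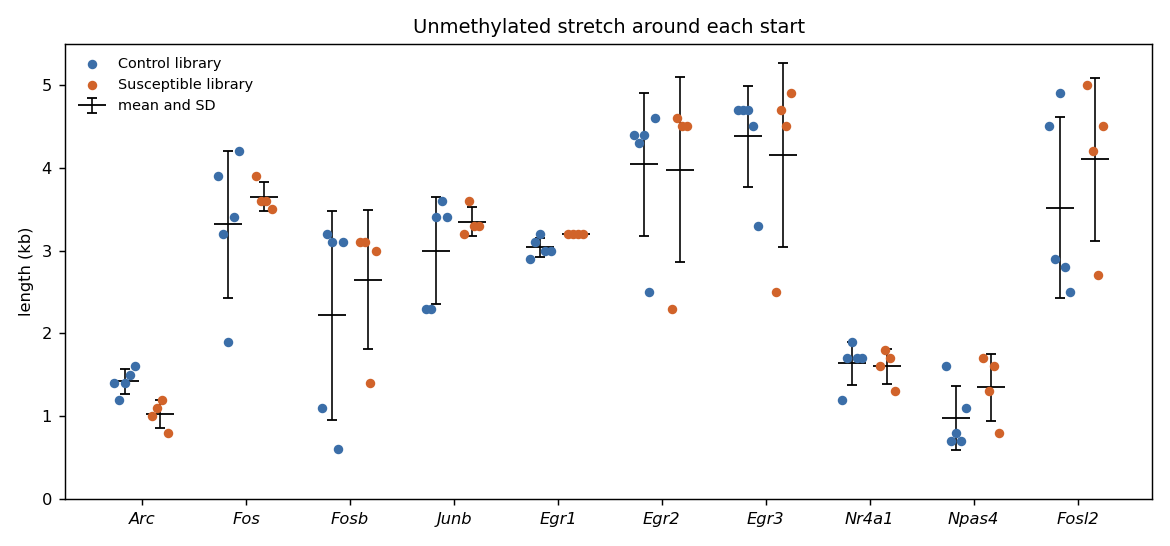
Length in kb of the stretch around each start whose 100-bp bins read under 20% methylation, in each library, with bins without a listed CpG skipped. Bars are the group mean with SD (5 Control, 4 Susceptible). Arc, Nr4a1 and Npas4 have the shortest stretches, and the Arc stretch is shorter in Susceptible on average.

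How far the low methylation reached was measured as the run of 100-bp bins under 20% on both sides of the start. Bins with no listed CpG were skipped, so the length of a run also depends on which CpGs a library lists. Per library, the Control means were 4.38 kb in Egr3, 4.04 kb in Egr2, 3.52 kb in Fosl2, 3.32 kb in Fos, 3.04 kb in Egr1, 3.0 kb in Junb, 2.22 kb in Fosb, 1.64 kb in Nr4a1, 1.42 kb in Arc and 0.98 kb in Npas4. Each gene's range over the Control libraries overlapped that of its neighbour in this order. Runs on calls pooled over a group gave another order: in Control 4.7 kb in Egr3, 4.6 kb in Fosl2, 3.8 kb in Fos, 3.4 kb in Junb, 3.2 kb in Egr1, 3.1 kb in Fosb, 2.8 kb in Egr2, 2.0 kb in Nr4a1, 1.5 kb in Arc and 0.7 kb in Npas4.

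Pooled over Susceptible, the run was 1.0 kb in Arc and 1.7 kb in Nr4a1. In 6 genes (Fos, Fosb, Junb, Egr1, Egr3 and Fosl2) the pooled runs of the groups were within 0.2 kb of each other. For Egr2 the pooled runs were 2.8 kb in Control and 4.5 kb in Susceptible, 2.8 and 4.4 kb with a limit of 10%, and 4.6 and 4.5 kb with a limit of 30%, while its means over libraries were 4.04 kb ± 0.87 and 3.975 kb ± 1.12. For Npas4 the pooled run was 1.4 kb in Susceptible, and a limit of 30% gave 1.7 kb in Control.

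Library by library, the Arc run was 1.4, 1.2, 1.4, 1.5 and 1.6 kb in Control 2, 3, 4, 5 and 8 and 1.0, 1.1, 1.2 and 0.8 kb in Susceptible 2, 3, 6 and 7. The shortest Control run equalled the longest Susceptible run. The means were 1.42 kb ± 0.15 and 1.03 kb ± 0.17 (exact permutation p = 0.0238, not adjusted over the 10 genes). With a limit of 10% the pooled runs of Arc were 1.1 kb in Control and 0.9 kb in Susceptible. For Egr1 the means were 3.04 kb and 3.20 kb (exact permutation p = 0.0476), and the other 8 genes had exact permutation p-values of 0.175 to 0.881.

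The rest of the activity-regulated program was read in 4 lists by role. None of their genes passed an adjusted p of 0.05, and the counts at an unadjusted p stand against 4.82% of all start windows and 4.55% of all bodies. In 9 relatives of the AP-1, Egr and Nr4a families (such as Jun, Nr4a2 and Atf3), 0 start windows and 0 bodies stood at an unadjusted p under 0.05, with median start and body levels of 5.06% and 33.1%. In 25 other rapid response genes (such as Dusp1, Btg2 and Per1), 0 starts and 1 body did: Tiparp, which encodes an ADP-ribosyltransferase, read 26.3% ± 7.3 in Control and 18.8% ± 2.4 in Susceptible. The median start of these 25 genes was 2.65% and the median body 22.9%, close to the members' medians of 2.03% and 26.0%.

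Later effectors at synapses counted 12 genes, with 1 start and 2 bodies at an unadjusted p under 0.05, against 4.82% of all starts and 4.55% of all bodies. Homer1, a postsynaptic scaffold, read 0.867% ± 0.484 at its start in Control and 1.59% ± 0.14 in Susceptible. The body of Plk2, a kinase of synaptic scaling, read 19.7% ± 5.0 and 26.0% ± 4.4, and that of Ptgs2, cyclooxygenase-2, read 69.4% ± 9.2 and 56.9% ± 2.5.

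Upstream regulators counted 17 genes, of which 16 start windows were tested, with 2 starts and 2 bodies at an unadjusted p under 0.05, against the same shares. The Mapk3 start, of the kinase ERK1, read 30.7% ± 7.1 in Control and 20.6% ± 4.4 in Susceptible. Rps6ka5, the kinase MSK1 that acts on CREB and histone H3, read 3.77% ± 1.18 and 5.39% ± 0.92 at its start. The body of Mef2a, a transcription factor, read 73.7% ± 2.1 and 71.0% ± 0.5. That of Hdac4, a histone deacetylase that represses MEF2 factors, read 82.3% ± 1.2 and 83.9% ± 1.5. Median differences at the start were 0.377, 0.292, 0.573 and 0.154 points in the 4 lists in this order, 0.251 points in the 10 members and -0.0791 points over all start windows. All start windows together lie at higher levels, with a median of 33.0% against 2.03% in the members. Within 500 bp of the start the median difference over all genes was 0.0870 points. No comparison at matched levels was made.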

How the data were processed

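The 10 genes, the gene lists and the tests were chosen with earlier results of these data known. The labels' protocols name frozen punches of the nucleus accumbens as the source of DNA, and a kit for small bisulfite inputs for the libraries. The submitters' processing notes name Picard, Bismark and Bowtie and the build mm10, without versions or order. Per the file headers, the deposited files give for each cytosine the count of calls (coverage, at least 10 at every entry) and the percent of them read as C and as T.

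Methylated calls were recovered from count and percent, both strands of a CpG were added, and the first of 4 and 8 repeated entries in Control 5 and Control 8 was kept. Autosomes and X were used. Starts came from RefSeq's promoter table of GRCm38.p6. Where several were listed, the one with most CpGs within 1 kb was used. Of the 34328 protein-coding and long noncoding RNA genes, 26794 had an entry. For genes without one, Arc, Egr1 and Egr3 among them, the CpG-richer gene end was used. Exon positions were not used here.

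A window was kept if each library had 3 CpGs and 20 calls or more in it. The test was a logistic model with quasi-binomial spread on methylated and unmethylated calls, all 9 libraries, no covariates. Pearson dispersion was moderated by limma's squeezeVar (limma 3.58.1, R 4.3.3), kept at 1 or more, and the group term tested by F test with Benjamini-Hochberg adjustment over all windows of a kind at 0.05. Model p means that test before adjustment. The code was tested on simulated data. Single values were tested by exact two-sided permutation over all splits (smallest p 0.00794). Strand scatter is the Pearson statistic over its binomial value at CpGs listed on both strands. Named were all 10 genes, per gene the lowest upstream tile, the 5 tiles of smallest p, and listed genes at an unadjusted p under 0.05. The tiles without overlap and single CpGs that are named in addition, and the 250-bp bins at Arc and Nr4a1, were chosen after their values were seen. So were the fits without Control 5 and Control 8, bodies beyond 1 kb without each library, the first listed start, and the split of Nr4a1 by listing. Python 3.11.15 was used for the rest.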

Additional observations from a re-analysis of the deposited data

Results flagged for a closer look

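In each of the 10 genes, start and body levels were checked in both groups for a library far from the others (40 groups), a check that chance passes in about 1 in 20 groups. It singled out 3 values. Control 4 read 1.50% at the Junb start, against 2.52 to 2.79% in the other 4 Control libraries. Susceptible 6 read 1.17% at the Egr1 start, against 1.58 to 1.63% in the other 3. Control 2 read 18.3% in the Egr1 body, against 20.9 to 21.7% in the other 4.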

How the results depend on the processing

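Of 489 recomputed differences of member windows and tiles, 449 kept their direction and their side of the threshold, 40 changed sign and 0 passed the threshold. The count includes settings that alter only the test: limma on logit levels, no moderation, and calls divided by strand scatter. There a difference could not change. It also includes the first listed start, which differs from the start used only in Egr2, and equal weights, judged by sign alone. Leaving out 1 library at a time, the ranges that crossed 0 were, at starts, -0.207 to 0.116 points in Fos, -0.501 to 0.610 in Fosb and -0.0333 to 0.364 in Egr3. In bodies they were -2.22 to 0.0282 in Fos, -0.553 to 1.77 in Egr3, -1.70 to 0.816 in Npas4 and -0.621 to 1.71 in Egr1. Within 2 kb of the start the signs changed in Fos (0.190), Fosb (0.119), Junb (0.0917), Egr1 (-0.970), Egr2 (-0.00492) and Egr3 (-0.0458), and within 500 bp in Fosb (0.00670) and Egr3 (-0.0870). Without Control 5 and Control 8, a choice made after seeing the data, they changed at the starts of Fosb (0.555), Junb (0.119) and Fosl2 (-0.0121). Equal weight per CpG, taken only over CpGs listed in all 9 libraries, changed them at the start of Fosb (0.172) and in 3 bodies. These were Fos (0.120), Egr2 (0.418) and Npas4 (1.06). Calls summed over the same CpGs changed the sign in the Fos body already (0.437). They kept it at the Fosb start (-0.516) and in the bodies of Egr2 (-3.95) and Npas4 (-0.674). CpGs of at least 20 calls gave -0.0971 in the Egr1 body. Among the lowest upstream tiles, leaving out Control 5 and Control 8 changed the sign in Fos (4.06), Egr2 (-0.0512) and Nr4a1 (-2.80). The cause was not tested.

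Member starts at an unadjusted p under 0.05 numbered 1 within 500 bp (2 within 1 kb), where 5.03% of all starts stood there. They numbered 3 with CpGs listed in all 9 libraries (5.27% of all starts), with no moderation (4.93%) and without Susceptible 7 (4.15%). In each other setting they numbered 2. Member bodies at such a p numbered 2 without Control 5 and Control 8 (4 with them), where 4.39% of all bodies stood there. Member tiles numbered 7 to 21 with 1 library left out and 7 with limma on logit levels, against 16. The 7 without Susceptible 6 were 3.38% against 2.84% of all tiles, and the 7 with limma 3.38% against 3.25%. The highest count, 21, came without Control 4 (10.1% against 5.37%) and without Susceptible 7 (10.1% against 3.83%). Over the genome, 0 to 1 tile was called with 1 library left out, the 1 without Control 4, and it is in none of the 10 loci.

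Unmethylated stretches moved by more than 1 SD in 17 of 60 recomputations. A limit of 10% gave 1.1 kb in Control for Arc, 2.3 kb in both groups for Junb, 2.9 and 3.1 kb in Control and Susceptible for Egr1, 2.5 kb in Susceptible for Egr3, 1.6 and 1.2 kb for Nr4a1, 0.4 kb in Susceptible for Npas4, and 2.5 and 2.9 kb for Fosl2. A limit of 30% gave 3.9 kb (Fos) and 3.3 kb (Egr1) in Susceptible and 4.6 kb (Egr2) and 1.7 kb (Npas4) in Control. Bins of 200 bp gave 3.8 kb for Junb in Susceptible and 4.6 kb for Egr2 in Control.

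The groups share only the numbers 2 and 3, and nothing in the labels says that a number marks a pair. Deviations from the group mean over 31006 start windows correlated by 0.0276 and -0.0330 between same-numbered libraries. A fit with the replicate block on these 4 libraries gave differences of 0.492 points at the Arc start, 1.22 in the Arc body and 4.59 at the Nr4a1 start. It changed signs at the starts of Junb (0.0110) and Fosl2 (-0.368) and in the bodies of Fos (1.28), Egr1 (-0.796) and Npas4 (0.563), and called 0 windows and 0 tiles. Levels near 0% limit what the depth can show: a start window held at least 871 calls per library, a tile tested at least 40.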
